A study of Sus scrofa with 12 samples.

Results

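The genes described here encode the subunits of the mitochondrial respiratory chain and of ATP synthase, measured in pig liver. They were taken by gene symbol: the NDUF subunits of complex I, the SDH genes of complex II, the UQCR genes and CYC1 of complex III, COX4 to COX8 of complex IV, the ATP5 genes of complex V, and the 13 protein genes of mitochondrial DNA. The rule found 80 of the 21169 genes in the deposited table, 67 of them nuclear and 13 mitochondrial. Complex I held 36 (29 nuclear and 7 mitochondrial), complex II 4, complex III 6 (5 and 1), complex IV 19 (16 and 3) and complex V 15 (13 and 2). NDUFA4 and NDUFA4L2 carry a complex I name and are counted here with complex IV, where the NDUFA4 protein is now placed. A further 15 subunits have no symbol in the deposited table and were named from reference tables only, COX5A and UQCRFS1 among them. They stand outside the 80 and are given where they bear on a result.

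Hezuo and Bama pigs were held for 15 days at -15 ± 2 °C or at 23 ± 2 °C, called room temperature below. Livers of 3 pigs were sequenced in each of 4 groups: Hezuo cold, Hezuo room, Bama cold and Bama room. The labels name no genotype, age or sex of the animals and no batch, and each group rests on its 3 animals. RNA was freed of ribosomal RNA before random-primed library preparation, so transcripts were not selected by their poly(A) tails.

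The respiratory chain passes electrons from NADH (complex I) and succinate (complex II) through ubiquinone, complex III and cytochrome c to oxygen at complex IV, and the proton gradient this builds drives ATP synthesis at complex V. Mitochondrial DNA encodes a small core of subunits in every complex except complex II; the nucleus encodes all others, which are imported. In liver this chain takes electrons from fatty acid and amino acid breakdown and supplies ATP for glucose synthesis and urea formation.

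Libraries held 20041270 to 30188033 gene counts, and 72 of the 80 genes had at least 100 counts in every library. Hepatocyte markers summed to 36650 to 182324 CPM (counts as parts of the library total, scaled by TMM normalization), skeletal and cardiac muscle markers to at most 0.191 CPM with ACTA1, MYH7, CKM and TNNT3 each under 1 CPM, and adipocyte markers to at most 3.99 CPM with ADIPOQ and LEP under 1 CPM. Hepatocyte markers did not move alike in the cold: over both breeds 5 of 10 were positive with a median log2 of -0.02, and edgeR called 1 higher and 3 lower. Their sum was lower, at 69362 to 150829 CPM in Hezuo cold and 156752 to 182324 CPM in Hezuo room livers, and at 36650 to 101160 CPM in Bama cold and 116420 to 133341 CPM in Bama room livers. Stellate and fibroblast markers summed to 774 to 1335 CPM in Hezuo cold and 1408 to 2445 CPM in Hezuo room livers, and to 663 to 1175 CPM in Bama cold and 2053 to 4206 CPM in Bama room livers. Of these 8 markers 4 were called lower in the cold over both breeds and 0 higher. Of 10 Kupffer cell and macrophage markers all were positive in the cold in each breed (median log2 0.62 over both, 1 called higher). They summed to 2037 to 3931 CPM in Hezuo cold and 1275 to 2154 CPM in Hezuo room livers, and to 2944 to 5270 CPM in Bama cold and 2062 to 3159 CPM in Bama room livers. Of 7 T and NK cell markers, 5 were called lower and 1 higher in Hezuo than in Bama over both temperatures (median log2 -1.04), with sums of 46.8 to 79.7 CPM in Hezuo and 84.2 to 186 CPM in Bama livers. Of all genes tested, edgeR called 3.89% for the cold over both breeds and 12% between breeds over both temperatures. Erythroid markers summed to 2307 to 20921 CPM over Hezuo libraries of either temperature and to 234 to 5287 CPM over Bama libraries. The part of these shifts in the results that follow was not tested. In whole tissue, fewer cells of a type and less RNA per cell cannot be told apart.

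On the deposited FPKM scale, which divides by gene length, the 13 mitochondrial mRNAs had a median of 222 FPKM and the 67 nuclear genes a median of 23.9 FPKM over the 12 libraries. COX1, the catalytic subunit of complex IV, stood at 9579 FPKM, COX3 at 3611, COX2 at 2409, CYTB (cytochrome b of complex III) at 709 and ATP6 (the proton channel subunit of complex V) at 466. Complex I mRNAs of mitochondrial DNA were lower, between 55.2 FPKM for ND2 and 455 FPKM for ND1. ATP8, at 10.8 FPKM, and ND4L, at 153 FPKM, each overlap a neighbouring mitochondrial gene (ATP6 and ND4), so the division of reads between the partners is uncertain.

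**Figure D1:**
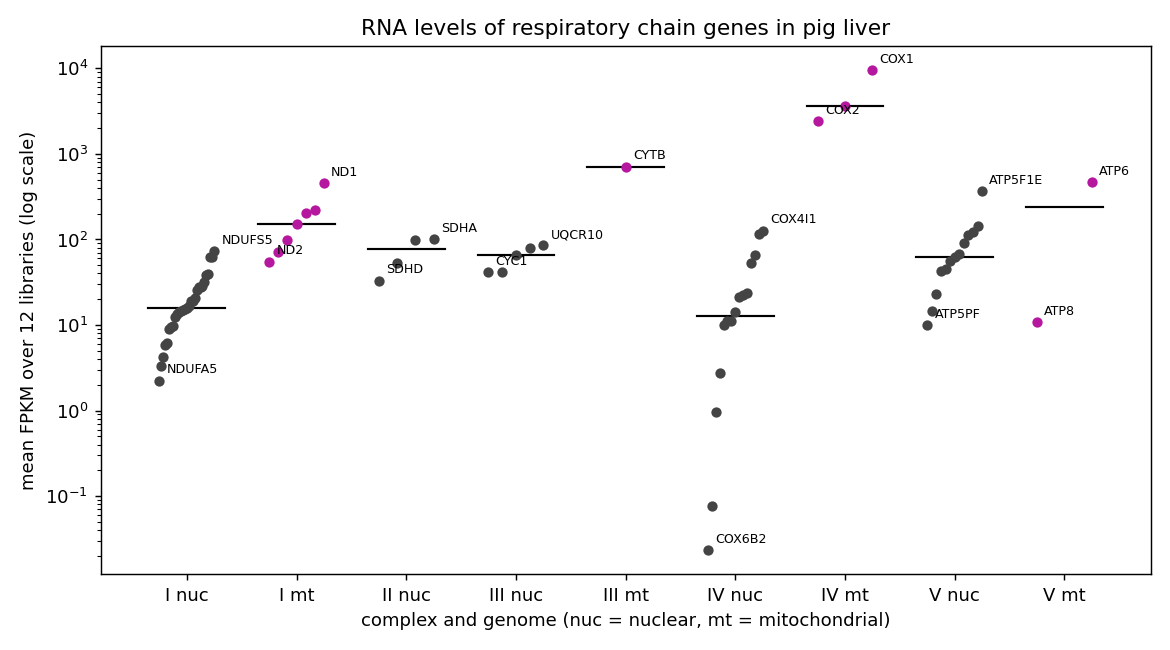
Mean FPKM over 12 libraries (log axis) of each respiratory chain gene, by complex and genome; points are genes, horizontal lines are class medians, and COX7B2, listed at 0, is not drawn. The 3 mitochondrial genes of complex IV lie between 2409 and 9579 FPKM, above every nuclear gene, of which ATP5F1E is highest at 371 FPKM.

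Among nuclear genes the median level was 15.8 FPKM for complex I, 76.7 for complex II, 65.3 for complex III, 12.7 for complex IV and 61.7 for complex V. ATP5F1E, the epsilon subunit of the ATP synthase head, was the highest nuclear gene at 371 FPKM. ATP5F1A, the alpha subunit, reached 145 FPKM, COX4I1 127 FPKM and SDHA, the flavoprotein of complex II, 101 FPKM. NDUFA5, an accessory subunit of complex I, was the lowest of its complex at 2.24 FPKM. The gene lengths implied by FPKM and counts ranged from 205 to 6892 bases with a median of 1230, and 9 genes exceeded 3000 bases, so the FPKM of those genes rests on a long gene model. COX6A1 is such a gene, with an implied length of 4854 bases and 11.2 FPKM.

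Complex IV has subunits with alternative forms in different tissues, and the liver libraries held mainly the ubiquitous ones. COX4I1 stood at 127 FPKM and COX4I2, known for its expression in lung, at 0.963 FPKM. COX7A2 reached 65.8 FPKM and COX7A1, the form of heart and skeletal muscle, 10.1 FPKM. COX6A1 and the muscle form COX6A2 were closer, at 11.2 and 2.77 FPKM, the first value resting on the long gene model named above. COX8A had 117 FPKM. NDUFA4 had 23.9 FPKM and its paralog NDUFA4L2, induced by low oxygen, 0.0767 FPKM. COX6B2 and COX7B2, known mainly from testis, were too low for testing: COX6B2 averaged 0.0233 FPKM, and COX7B2 had 0 counts in all 12 libraries, which allows up to 0.00979 CPM over their 306297829 gene counts (3 counts, counting error only). The ring-forming c subunit of complex V is an identical mature protein made from 3 genes. Of their RNAs, ATP5MC3 was highest at 90.5 FPKM, followed by ATP5MC2 at 55.4 FPKM and ATP5MC1 at 23.1 FPKM.

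Together the mitochondrial mRNAs took 1.45 to 2.92% of all gene counts per library and the nuclear subunit genes 0.292 to 0.411%. COX1 alone gave 62.0 to 71.8% of the mitochondrial counts. The mitochondrial share was 2.72, 2.92 and 1.65% in Hezuo cold, 1.76, 2.63 and 1.92% in Hezuo room, 2.41, 2.41 and 2.43% in Bama cold and 1.45, 2.23 and 1.67% in Bama room livers. The 3 Bama cold livers were nearly equal and above all 3 Bama room livers, whereas the Hezuo groups overlapped, with 1 cold liver below every room liver.

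The nuclear share was 0.370 ± 0.0208% in Hezuo cold and 0.322 ± 0.0264% in Hezuo room livers, and 0.401 ± 0.00978% in Bama cold and 0.326 ± 0.0287% in Bama room livers (SD, n = 3 each). In each breed every cold liver lay above every room liver. Averaged over breeds the cold to room log2 difference was 0.25, with p = 0.005 in a two-sided exact permutation test that shuffled temperature within breed. This is the smallest p that the 400 arrangements allow, and adjusted over the 12 share tests run it was 0.06, which misses the 0.05 threshold. Without counts of albumin (ALB, 1.53 to 12% of gene counts, and among the hepatocyte markers above) the difference was 0.18 (exact permutation p = 0.015, unadjusted). Shares are parts of library totals, and on that scale the median log2 of all genes was itself 0.09 in the cold.

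The mitochondrial share differed by 0.32 log2 units between cold and room over both breeds (exact permutation p = 0.11, adjusted p = 0.264). Without the third Hezuo cold liver that difference was 0.45 with an unadjusted exact permutation p = 0.025. Between Hezuo and Bama the log2 difference was 0.10 for the mitochondrial share (exact permutation p = 0.58) and -0.07 for the nuclear share (exact permutation p = 0.265). On the same scale of library totals the median log2 of all genes between breeds was -0.26, below both. Within a single breed or temperature, 3 livers against 3, such an exact permutation test cannot go below p = 0.1.

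**Figure D2:**
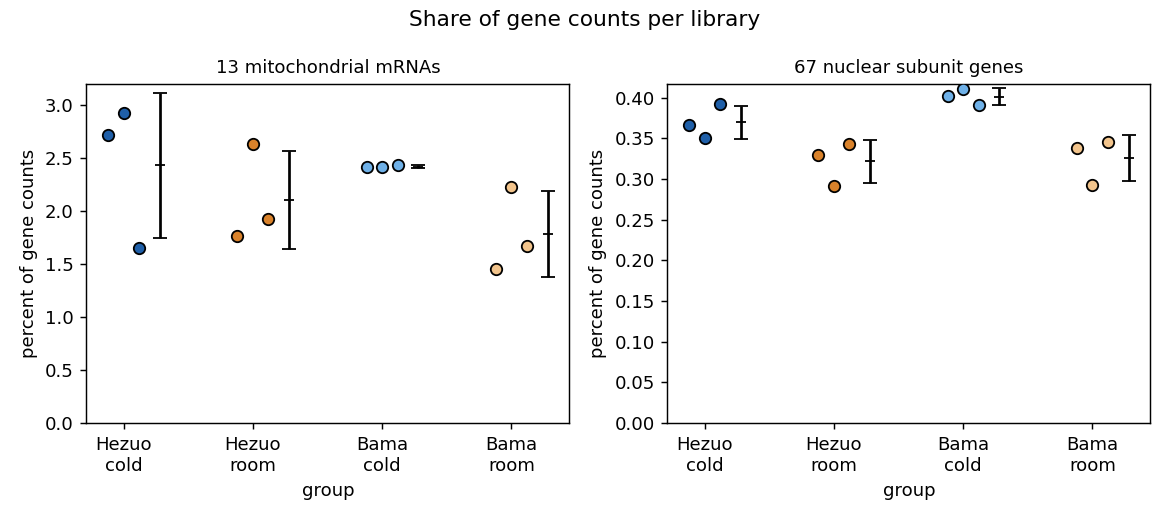
Percent of all gene counts per library on the 13 mitochondrial mRNAs (left) and the 67 nuclear subunit genes (right), by group; points are libraries, bars beside them the mean ± SD of 3. The nuclear share of every cold liver lies above that of every room liver of its breed, while the mitochondrial shares of Hezuo cold livers, 1.65 to 2.92%, span those of Hezuo room livers.

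The first question of the design is what the cold did to these genes. Averaged over the breeds, COX7B, UQCRC1 and NDUFA4 rose in the cold by 1.27 to 1.36 fold, and no subunit gene fell. These are 3 of the 78 subunit genes tested, or 3.85%, against 3.89% of all 13532 genes tested (526 genes) and 1.95% called higher, so the share called is near that of any gene. Most of the others leaned the same way: 62 of 78 (79.5%) had a positive cold to room fold change, against 48.7% of all genes. The median log2 fold change was 0.15 for the subunit genes and -0.01 for all genes. At an unadjusted p under 0.05 there were 22 higher (28.2%, against 11.7% of all genes) and 2 lower. In 9 genes (11.5%, against 2.42% of all genes) every cold liver lay above every room liver of its breed, and in 0 all lay below. The genes share libraries and are not independent, so these counts are descriptions. With libraries scaled by their totals alone, in place of the TMM factors used throughout, 17 subunit genes were called higher in the cold and 0 lower. The median of all genes was then 0.09, and over all genes 896 were called higher and 220 lower, in place of 264 and 262. DESeq2 called 13 of 78 higher and 0 lower (16.7%, against 11% of all genes).

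COX7B, an accessory subunit of complex IV (ENSSSCG00000032129), had 104, 91.9 and 113 CPM in Hezuo cold and 77.7, 68.0 and 73.6 CPM in Hezuo room livers, and 91.0, 94.8 and 101 CPM in Bama cold and 76.1, 66.3 and 76 CPM in Bama room livers. All 6 cold livers lay above all 6 room livers. The log2 fold change was 0.50 ± 0.12 (SE) in Hezuo and 0.39 ± 0.12 in Bama, and the breed average was called by edgeR's quasi-likelihood test (adjusted p = 0.0205).

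UQCRC1, a core subunit of complex III (ENSSSCG00000011356), had 158, 141 and 160 CPM in Hezuo cold and 133, 101 and 137 CPM in Hezuo room livers, and 132, 135 and 149 CPM in Bama cold and 96.1, 95.4 and 94.7 CPM in Bama room livers. In each breed the cold livers lay above the room livers, and the 3 Bama room livers were the lowest of the 12. The log2 fold change was 0.31 ± 0.13 in Hezuo and 0.54 ± 0.13 in Bama (edgeR adjusted p for the average = 0.0345).

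NDUFA4, the small subunit at the surface of complex IV (ENSSSCG00000024313), had 57.1, 64.1 and 75.4 CPM in Hezuo cold and 53.3, 48.6 and 46.3 CPM in Hezuo room livers, and 73.3, 69.5 and 75.6 CPM in Bama cold and 57.9, 61.1 and 61.7 CPM in Bama room livers. The groups did not overlap within either breed, although the lowest Hezuo cold liver was below all 3 Bama room livers. The average log2 fold change was 0.34 ± 0.08 (edgeR adjusted p = 0.0452).

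These calls depended on single animals. COX7B was no longer called without the second Hezuo room liver. UQCRC1 was lost without any 1 of 7 livers (Hezuo cold 2 and 3, Hezuo room 2, Bama cold 1 and 3, Bama room 1 and 3), and NDUFA4 without any 1 of the 12 except the first Hezuo cold liver.

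Of the nuclear complex I genes, 25 of 29 had positive cold to room fold changes with a median log2 of 0.11, and 0 were called by edgeR, 9 being higher at an unadjusted p under 0.05. NDUFA8, an accessory subunit, had 26.7, 27.5 and 37.7 CPM in Hezuo cold and 23.1, 15.4 and 22.5 CPM in Hezuo room livers, and 26.4, 24.7 and 23.5 CPM in Bama cold and 18.1, 15.0 and 21.9 CPM in Bama room livers. Its cold livers lay above the room livers in each breed, and the log2 fold change was 0.51 ± 0.14 (edgeR adjusted p = 0.0584). NDUFS1, which carries iron-sulfur clusters of the NADH-oxidizing arm, had 0.41 ± 0.11 (edgeR adjusted p = 0.0589), and NDUFA9, which sits where the arms of complex I meet, 0.31 ± 0.08 (edgeR adjusted p = 0.0523).

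In complex II the cold to room log2 fold change was 0.33 ± 0.10 for SDHB, the iron-sulfur subunit, 0.22 ± 0.16 for SDHD and -0.06 ± 0.09 for SDHC, the membrane anchors, and 0.09 ± 0.10 for SDHA. None of the 4 was called. SDHB had 147, 144 and 128 CPM in Hezuo cold and 116, 132 and 142 CPM in Hezuo room livers, and 109, 116 and 118 CPM in Bama cold and 73.1, 93.0 and 69.0 CPM in Bama room livers. The Hezuo groups overlapped and the Bama groups did not. SDHB was the 1 member of 78 with an unadjusted p under 0.05 for the breed difference in the cold response, at -0.44 ± 0.19 (edgeR adjusted p = 0.60), against 8.02% of all genes.

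In complex III, CYC1, the cytochrome c1 subunit, had a log2 fold change of 0.29 ± 0.08 (edgeR adjusted p = 0.0613) and UQCRC2, the other core subunit, 0.26 ± 0.12. In complex V, 11 of 13 nuclear genes had positive values with a median of 0.19. They were led by ATP5MC1 at 0.53 ± 0.14 (edgeR adjusted p = 0.0556) and ATP5F1A at 0.40 ± 0.12 (edgeR adjusted p = 0.0749), and all missed the threshold. The c-subunit genes did not move alike, with ATP5MC3 at 0.35 ± 0.13 and ATP5MC2 at -0.25 ± 0.12.

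Nuclear complex IV genes lay on both sides of 0: over both breeds 6 of the 14 tested had positive cold to room fold changes, COX7B and NDUFA4 among them, with a median log2 of -0.11. In Hezuo it was 8 of 14 with a median of 0.04 and in Bama 4 of 14 with a median of -0.10. With libraries scaled by their totals alone it was 7 of 14 over both breeds with a median of -0.01. COX7A2L, which helps join complexes III and IV into supercomplexes, had 27.9, 24.7 and 23.3 CPM in Hezuo cold and 25.6, 31.5 and 31.4 CPM in Hezuo room livers, and 22.9, 27.7 and 18.4 CPM in Bama cold and 31.1, 30.4 and 32.1 CPM in Bama room livers. The Hezuo groups overlapped and the Bama cold livers were all below the Bama room livers. Its log2 fold change was -0.33 ± 0.11 (edgeR adjusted p = 0.0985). COX4I1 had -0.19 ± 0.12 and COX7C -0.21 ± 0.09. In Hezuo alone COX4I2 had -1.14 ± 0.53, with 0.345 to 0.475 CPM in cold and 0.777 to 0.998 CPM in room livers. These are low values, and in Hezuo 0 nuclear complex IV genes were lower at an unadjusted edgeR p under 0.05. COX5A, among the 15 subunits without a deposited symbol, rose in the cold at 0.36 ± 0.08 (edgeR adjusted p = 0.0405). It was the only 1 of those 15 called (6.67%, against 3.89% of all genes).

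All 13 mitochondrial mRNAs had positive cold to room fold changes in each breed, with a median log2 of 0.34 in Hezuo and 0.35 in Bama, but none was called by edgeR and 3 had an unadjusted p under 0.05 over both breeds. The medians and signs rested on single livers: in Hezuo the median was 0.06 without the second cold liver (9 of 13 positive), 0.09 and 0.21 without the first or the third room liver (10 of 13 each), 0.60 without the third cold liver and 0.72 without the second room liver. In Bama it was 0.20 without the first (11 of 13) or the third room liver and 0.74 without the second. Over both breeds, where the median was 0.35, all 13 were positive with any 1 library left out and the median ran from 0.21 to 0.60. These mRNAs are cut from shared precursor transcripts and do not count as separate observations. The values for both breeds were 0.54 ± 0.20 for CYTB, 0.52 ± 0.20 for ND6, which lies on the opposite strand to the rest, and 0.21 ± 0.16 for COX1. COX1 had 19303, 19497 and 13000 CPM in Hezuo cold and 14476, 18173 and 14695 CPM in Hezuo room livers, and 14186, 14200 and 15479 CPM in Bama cold and 9783, 15633 and 10662 CPM in Bama room livers. In each breed the groups overlapped, through the third Hezuo cold and the second Bama room liver.

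Within a single breed no subunit gene was called by edgeR. In Hezuo this was 0 of 78 against 0.281% of all genes, with 11 at an unadjusted p under 0.05 (14.1%, against 15.6%). In Bama it was 0 of 78 against 0.924%, with 16 at an unadjusted p under 0.05 (20.5%, against 15.8%). DESeq2 called COX7B and NDUFA4 in Hezuo (2.56%, against 4.0% of all genes), and COX7B, CYC1, NDUFA9, SDHB and UQCRC1 in Bama (6.41%, against 5.06%). For the breed difference in the cold response itself, edgeR called 0 of 78 against 0.00739% of all genes and DESeq2 0 against 1.03%. The lists of the breeds therefore do not show that the breeds responded differently.

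**Figure D3:**
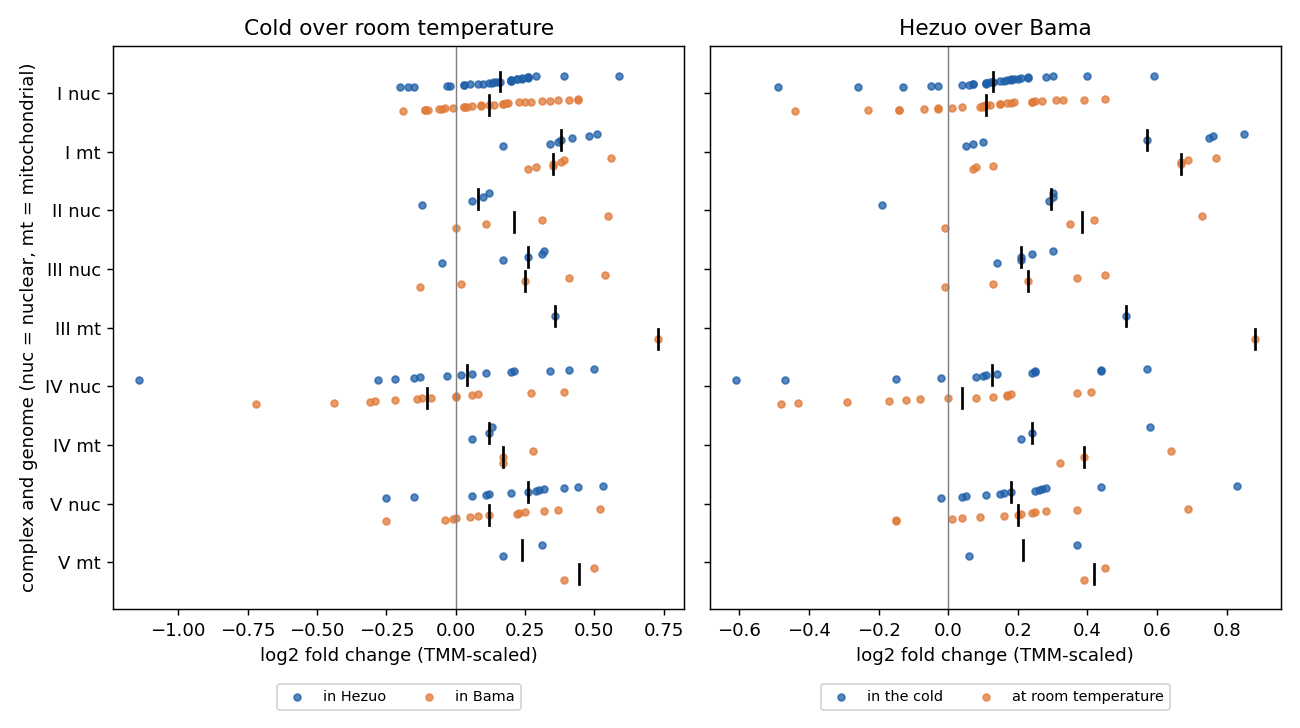
Log2 fold changes of the 78 tested genes by complex and genome, for cold over room temperature within each breed (left) and Hezuo over Bama at each temperature (right); points are genes, black ticks class medians. In the left panel all 13 mitochondrial genes lie above 0 in both breeds with all libraries included, while nuclear complex IV genes spread on both sides of it.

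The second question is how the breeds differ. Hezuo livers exceeded Bama livers in SDHA, SDHB and SDHC of complex II, in NDUFA10, NDUFS5 and NDUFB11 of complex I, and in CYC1 and CYTB of complex III, by 1.23 to 1.62 fold over both temperatures, and were lower in NDUFA5 of complex I. These are 9 of 78 genes, or 11.5%, against 12% of all genes tested (1620 genes), again near the share of any gene. Of all genes 6.1% were called higher and 5.87% lower. DESeq2 called 15 of 78 (19.2%, against 19.0% of all genes). In 5 genes all Hezuo livers lay above all Bama livers at each temperature (6.41%, against 4.05% of all genes), and in 1 all lay below. Of the 78, 65 had a positive Hezuo to Bama fold change, with a median log2 of 0.16, against 50.2% of all genes with a median of 0.

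The sign of these values depends on how libraries are scaled. TMM factors ran from 0.874 to 0.957 in Hezuo and from 0.979 to 1.197 in Bama, and with library totals alone the median of all genes moved to -0.26 between breeds. On that scale 22 of 78 subunit genes were positive and 43 changed sign, whereas 64 of 78 still lay above the median of all genes. The 9 called genes kept their signs, but only NDUFA5 kept its call, and the 8 genes called by edgeR under library totals were all lower in Hezuo, in place of 8 higher and 1 lower. They were ATP5PF, COX8A, NDUFA4, NDUFA5, NDUFB2, NDUFB7, NDUFS6 and NDUFS7. Over all genes 372 were then called higher and 4006 lower, in place of 825 and 795. SDHB was then at 0.25 and CYC1 at 0.07. By complex, 5 of 29 nuclear genes of complex I were then positive in place of 24, 3 of 4 of complex II as before, 1 of 5 of complex III in place of 5, 2 of 14 of complex IV in place of 8, 2 of 13 of complex V in place of 12, and 9 of 13 mitochondrial genes in place of 13. The directions between breeds given below are relative to the typical gene.

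In complex II 3 of 4 genes were called higher in Hezuo, with signs that held over both temperatures under library totals, although in the cold alone all 4 were then negative. SDHB (ENSSSCG00000020926), whose values by library stand above, averaged 140 ± 9.97 CPM in Hezuo cold and 114 ± 4.46 CPM in Bama cold livers, and 130 ± 13.2 CPM in Hezuo room and 78.3 ± 12.8 CPM in Bama room livers. At each temperature all Hezuo livers were above all Bama livers. The log2 fold change over both temperatures was 0.51 ± 0.10 (edgeR adjusted p = 0.00998), and the call held without any single library. At room temperature alone SDHB was at 0.73 ± 0.14 (edgeR adjusted p = 0.0384) and the only 1 of 78 called, against 1.08% of all genes. That call was lost without any 1 of 7 of the 12 libraries (all 3 Hezuo room, Bama room 1 and 3, Hezuo cold 1 and 2; edgeR adjusted p up to 0.156). DESeq2 called 5 of 78 at room temperature (6.41%, against 7.66%). In the cold it was at 0.29 ± 0.14 (edgeR adjusted p = 0.259), 0 of 78 being called against 2.76% of all genes, with 10 at an unadjusted p under 0.05 (12.8%, against 21.1%) and 2 called by DESeq2 (NDUFA10 and NDUFS5, against 9.06%).

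SDHA had 310, 264 and 320 CPM in Hezuo cold and 227, 242 and 256 CPM in Bama cold livers, and 300, 265 and 292 CPM in Hezuo room and 206, 253 and 213 CPM in Bama room livers. SDHC had 188, 191 and 182 CPM in Hezuo cold and 132, 147 and 176 CPM in Bama cold livers, and 224, 185 and 202 CPM in Hezuo room and 146, 153 and 156 CPM in Bama room livers. In both genes the breeds did not overlap at either temperature. The log2 fold changes were 0.33 ± 0.10 for SDHA and 0.36 ± 0.09 for SDHC (edgeR adjusted p = 0.0456 and 0.0289). SDHD, the other anchor, stood at -0.10 ± 0.16 and its breeds overlapped. SDHA was lost without any 1 of 9 libraries and SDHC without any 1 of 8.

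**Figure D4:**
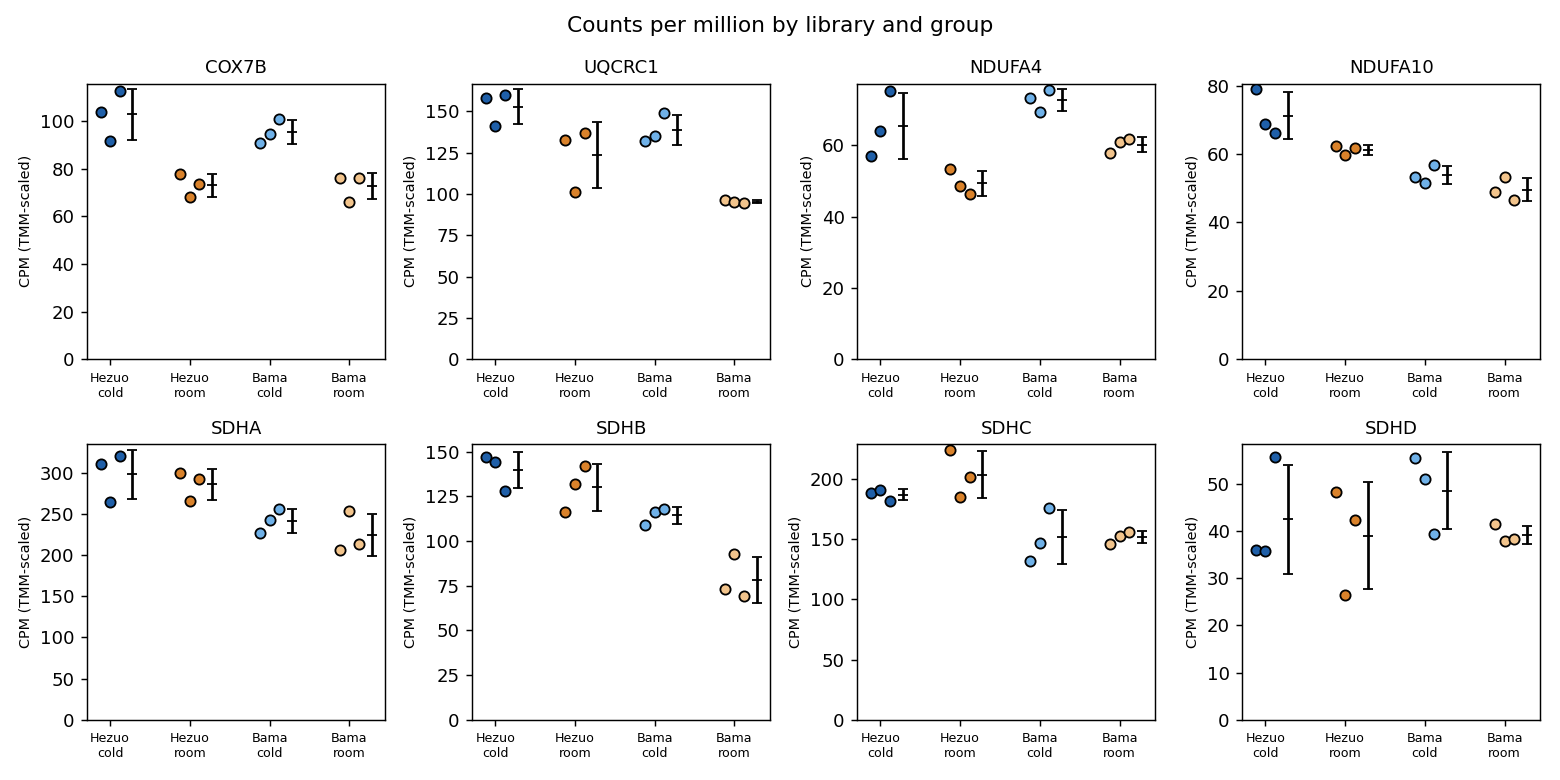
TMM-scaled CPM of 8 genes by group; points are libraries, bars beside them the mean ± SD of 3. COX7B is higher in all 6 cold than in all 6 room livers, and SDHA, SDHB and SDHC are higher in Hezuo than in Bama livers at each temperature on this scale, though not in the cold when libraries are scaled by their totals.

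In complex I, NDUFA10, an accessory subunit of the membrane arm, had 79.0, 68.8 and 66.1 CPM in Hezuo cold and 53.4, 51.5 and 56.7 CPM in Bama cold livers, and 62.4, 59.6 and 61.9 CPM in Hezuo room and 49.0, 53.2 and 46.5 CPM in Bama room livers. All 6 Hezuo livers were above all 6 Bama livers. Its log2 fold change was 0.36 ± 0.08 (edgeR adjusted p = 0.0145), and this call too held without any single library. NDUFS5 stood at 0.42 ± 0.11 and NDUFB11, encoded on the X chromosome, at 0.29 ± 0.08 (edgeR adjusted p = 0.0364 and 0.0383). NDUFA5 had 11.5, 15.0 and 13.3 CPM in Hezuo cold and 14.3, 20.8 and 20.7 CPM in Bama cold livers, and 11.2, 11.4 and 14 CPM in Hezuo room and 16.6, 19.0 and 14.1 CPM in Bama room livers. It was the lower gene at -0.46 ± 0.13 (edgeR adjusted p = 0.0378), with overlap in the cold only. These 3 calls held without 4, 2 and 4 of the 12 libraries left out in turn.

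CYC1 of complex III had 63.5, 65.7 and 55.2 CPM in Hezuo cold and 53.8, 47.7 and 58.3 CPM in Bama cold livers, and 53.9, 57.8 and 52.5 CPM in Hezuo room and 39.4, 41.1 and 39.5 CPM in Bama room livers. The breeds overlapped in the cold and not at room temperature. The log2 fold change was 0.33 ± 0.08 (edgeR adjusted p = 0.0231). None of the 27 nuclear genes of complexes IV and V tested among the 78 was called. COX8A stood at -0.45 ± 0.14 and the ATP synthase inhibitor ATP5IF1, which blocks ATP hydrolysis when the proton gradient fails, at 0.76 ± 0.24 (edgeR adjusted p = 0.0575 and 0.0571). ATP5IF1 had 35.1, 31.9 and 76.5 CPM in Hezuo cold and 26.8, 27.4 and 26.5 CPM in Bama cold livers, and 29.8, 53.9 and 36.2 CPM in Hezuo room and 23.3, 18.5 and 32.3 CPM in Bama room livers. Its Hezuo values were spread widely, with 1 liver of each Hezuo group well above the other pair. Of the 15 subunits without a deposited symbol, 3 were called between breeds over both temperatures, against 12% of all genes. COX5A and ATP5H were higher in Hezuo (13.3%, against 6.1% of all genes) and NDUFA2 was lower. Whether these calls hold under library totals is not reported here.

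DDX3Y, a gene of the Y chromosome, was detected in all 6 Hezuo livers, in 2 of 3 Bama cold livers and in 0 of 3 Bama room livers at over 10 counts, and the labels give no sex. Within Bama, temperature and the presence of DDX3Y nearly coincide. At room temperature its detection coincides with breed, and the breed comparison there cannot be told apart from it within those 6 livers. With its detection as a covariate 0 of 78 genes were called in either averaged comparison, against 0.0443% of all genes for the cold and 0.155% between breeds. The log2 fold changes of COX7B in the cold and SDHB between breeds stayed close, at 0.44 (edgeR adjusted p = 0.171) and 0.53 (edgeR adjusted p = 0.218). Of the 78 genes, 4 changed sign for the cold over both breeds and 6 between breeds over both temperatures. For the cold in Bama 8 changed sign, and between breeds at room temperature 13.

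Among mitochondrial mRNAs the Hezuo to Bama values divided by gene. All 13 were positive over both temperatures, at a median log2 of 0.41, but under library totals ATP8, ND4L, ND5 and ND6 were negative and the median was 0.16. Without the second Hezuo room liver the median was 0.24 with 10 of 13 positive, and without the second Hezuo cold liver 0.27 with 12 of 13 positive. With other single libraries left out it ran up to 0.53, with 12 of 13 positive without the first or the third Bama room liver. CYTB had 1163, 1450 and 763 CPM in Hezuo cold and 741, 783 and 853 CPM in Bama cold livers, and 626, 1276 and 737 CPM in Hezuo room and 408, 581 and 444 CPM in Bama room livers. It was the 1 called, at 0.69 ± 0.20 (edgeR adjusted p = 0.0456), with overlap in the cold and a call that held in 2 of 12 libraries left out in turn. ND1 and ND4 stood at 0.77 ± 0.34 each and ND3 at 0.71 ± 0.31, while ND5 was at 0.07 ± 0.28, ND4L at 0.09 ± 0.17 and ND6 at 0.09 ± 0.20.

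**Figure D5:**
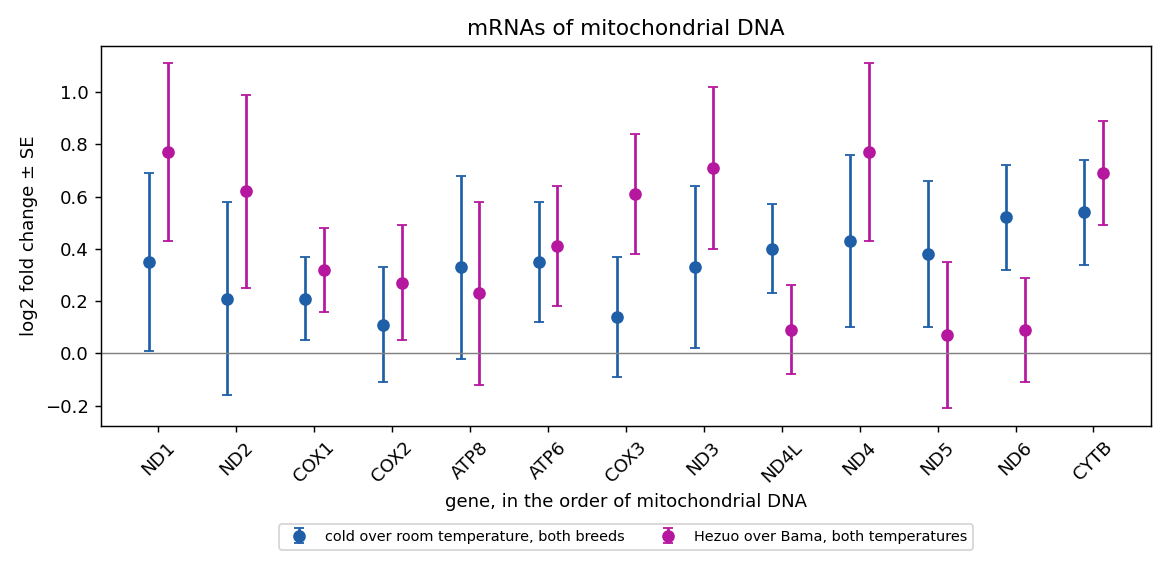
Log2 fold changes ± SE of the 13 mRNAs of mitochondrial DNA in genome order, for cold over room temperature over both breeds and Hezuo over Bama over both temperatures. The cold values are all positive with a median of 0.35, and the breed values are 0.07 to 0.09 at ND4L, ND5 and ND6; for these and ATP8, library totals in place of TMM turn the sign.

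Ratios between mRNAs within a library do not depend on scaling, and those below were chosen after their values were seen. The count ratio of ND4 to ND5 was 0.828, 0.996 and 0.814 in Hezuo cold and 0.510, 0.516 and 0.552 in Bama cold livers, and 0.718, 0.908 and 0.747 in Hezuo room and 0.591, 0.536 and 0.493 in Bama room livers. The lowest Hezuo liver, of either temperature, was above the highest Bama liver. ND1 to ND5 ran from 1.12 to 1.54 in Hezuo and from 0.718 to 0.947 in Bama livers. Of the 78 ratios among the 13 mRNAs, 8 did not overlap between the 6 Hezuo and 6 Bama livers, and 5 of those 8 contain ND5. Between the 6 cold and the 6 room livers 0 of 78 were separated. Ratios that share an mRNA are not separate observations, and ratios among other genes were not computed for comparison.

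Other genes of the pathway were counted from lists of assembly factors, electron carriers, citric acid cycle enzymes and regulators. Of 45 assembly factors tested, 2 rose and 1 fell in the cold over both breeds (6.67% called, against 3.89% of all genes). HIGD1A, a small inner membrane protein that binds complexes III and IV and is known from other mammals to respond to low oxygen, had 117 ± 56.3 CPM in Hezuo cold and 32.2 ± 10.3 CPM in Hezuo room livers, and 75.6 ± 12.8 CPM in Bama cold and 30.3 ± 4.76 CPM in Bama room livers (SD, n = 3 each). Its log2 fold change was 1.59 ± 0.23 (edgeR adjusted p = 0.00924). NDUFAF6, an assembly factor of complex I, rose by 1.32 ± 0.23 (edgeR adjusted p = 0.0151), and NUBPL, which supplies iron-sulfur clusters to complex I, was at -0.49 ± 0.12 (edgeR adjusted p = 0.0457).

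Of 19 carriers and electron entry genes, 3 rose in the cold and 0 fell (15.8% called, against 3.89% of all genes). CYCS, cytochrome c itself, had 49.4 ± 16.6 CPM in Hezuo cold and 23.9 ± 4.05 CPM in Hezuo room livers, and 34.8 ± 4.98 CPM in Bama cold and 22.8 ± 2.93 CPM in Bama room livers (SD, n = 3 each), a log2 fold change of 0.83 ± 0.16 (edgeR adjusted p = 0.0216). ETFDH, which hands electrons of fatty acid oxidation to ubiquinone, was at 0.49 ± 0.10 and COQ9, needed for ubiquinone synthesis, at 0.33 ± 0.08. Of 14 citric acid cycle genes, 3 rose (SUCLA2 at 0.96 ± 0.21, FH at 0.78 ± 0.15 and IDH3A at 0.46 ± 0.10) and 0 fell, or 21.4% called. The log2 fold changes of the called chain subunits were 0.34 to 0.44, above that of COQ9 and below those of the other genes named in this paragraph.

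Of 26 genes of mitochondrial DNA transcription and RNA handling, 2 were called higher in the cold over both breeds (7.69%). They were SSBP1 (0.43 ± 0.10), which coats single-stranded mitochondrial DNA, and PNPT1 (0.40 ± 0.10), an RNA-degrading enzyme. SSBP1 moved mainly in Hezuo, with 18.8 ± 2.92 CPM in cold and 10.8 ± 0.67 CPM in room livers (SD, n = 3 each). In Bama it had 17 ± 1.01 CPM in cold and 16.4 ± 1.67 CPM in room livers. PNPT1 moved mainly in Bama, with 20.9 ± 2.86 CPM in cold and 13.6 ± 0.365 CPM in room livers. In Hezuo it had 14 ± 1.34 CPM in cold and 12.4 ± 1.59 CPM in room livers. The transcription factor TFAM stood at 0.09 ± 0.16, LRPPRC and SLIRP, which stabilize mitochondrial mRNAs, at 0.25 ± 0.12 and 0.03 ± 0.18, and none of these passed. Of 14 regulators, 2 rose (14.3% called), ESRRA at 0.65 ± 0.11 and PERM1 at 2.55 ± 0.39. The coactivator PPARGC1A was at 0.00 ± 0.33, and NRF1 and GABPA, activators of many nuclear subunit genes, at 0.10 ± 0.10 and 0.08 ± 0.10. Of 17 membrane and import genes, TOMM40, the import channel of the outer membrane, rose at 0.67 ± 0.17 (5.88% called). Of the 14 listed genes called for the cold, 13 were still called under library totals, all but NUBPL. That scaling moved the median of all genes from -0.01 to 0.09, toward higher in the cold, and NUBPL alone had fallen. With DDX3Y detection as a covariate edgeR called only 6 of all 13532 genes for the cold, fewer than these 14.

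Between breeds, Hezuo livers were higher in 5 of 45 assembly factors (11.1%, against 12% of all genes), 6 of 19 carriers and entry genes (31.6%) and 4 of 14 citric acid cycle genes (28.6%), with 0 lower in any of these lists. SURF1, an assembly factor of complex IV, had 34.4 ± 3.52 CPM in Hezuo cold and 21.3 ± 2.89 CPM in Bama cold livers, and 34.0 ± 2.80 CPM in Hezuo room and 20.9 ± 2.44 CPM in Bama room livers (SD, n = 3 each). Its log2 fold change was 0.70 ± 0.10 (edgeR adjusted p = 0.00356). COA3 (0.70 ± 0.13) and SCO1 (0.63 ± 0.12), which also serve complex IV assembly, were higher in Hezuo as well. COQ4 (0.89 ± 0.18), COQ5, COQ6 and COQ9 of ubiquinone synthesis and ETFB (0.59 ± 0.12) and ETFDH (0.41 ± 0.10) of electron transfer from fatty acids made up the 6 carriers and entry genes. The other called assembly factors were UQCC1 at 0.45 and COX15 at 0.36, and the citric acid cycle enzymes were OGDH at 0.55, SUCLG1 at 0.41, IDH3B at 0.34 and IDH3G at 0.28. Of the 26 genes of mitochondrial DNA transcription and RNA handling GRSF1, an RNA-binding protein, was higher at 0.36 and PNPT1 lower at -0.36, of 14 regulators the fatty acid receptor PPARA was higher at 0.74, and of 17 import genes 0 were called. Under library totals these 18 genes kept their signs and 6 their calls (COA3, SCO1, SURF1, COQ4, ETFB and PNPT1). PPARA and PNPT1 differed mainly in the cold. PPARA had 1079 ± 42.0 CPM in Hezuo cold and 509 ± 155 CPM in Bama cold livers. At room temperature it had 544 ± 70.9 CPM in Hezuo and 411 ± 161 CPM in Bama livers. PNPT1 was at -0.58 ± 0.14 in the cold, with 12.4 ± 1.59 CPM in Hezuo room and 13.6 ± 0.365 CPM in Bama room livers.

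The deposited circular RNA table tied 52 circular RNAs to 22 subunit genes by host symbol, with 1202 back-splice reads in all, or 0.192% of back-splice reads, where the subunit genes hold 2.50% of gene counts. By genome, 794 of these reads were listed to nuclear genes, which hold 0.355% of gene counts on average per library. The other 408 were listed to mitochondrial genes, which hold 2.18%. Among the 52 circular RNAs, 18 of the 19 listed to mitochondrial genes and 1 of the 33 listed to nuclear genes were annotated as antisense, against 3.66% of all circular RNAs. The most abundant with nuclear hosts were an exonic circle of NDUFB2 (chr18:9133515-9140672, genome build not named in the table) with 233 reads and one of NDUFA6 (chr5:6565453-6566862) with 124. The most abundant listed to a mitochondrial gene, opposite COX3 (MT:10170-10324), had 229 reads.

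A total of 19 circles had enough reads for testing, and 0 were called by edgeR in any of 7 contrasts (smallest adjusted p = 0.388), with 7 results at an unadjusted p under 0.05. Of 9032 circular RNAs tested, 0.0886% were called for the cold in Hezuo, 0.155% in Bama and 0.199% over both breeds. Between breeds it was 0.454% at room temperature, 0.421% in the cold and 1.28% over both, and for the breed difference in the cold response 0.0886%. A single-exon circle of SDHB (chr6:75647810-75648439) had 3, 4 and 8 reads in Hezuo cold and 10, 3 and 12 reads in Bama cold livers, and 2, 5 and 3 reads in Hezuo room and 15, 12 and 10 reads in Bama room livers. Its breed difference was -1.07 ± 0.53 on the log2 scale (edgeR adjusted p = 0.431), where the linear gene stood at 0.51.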

How the data were processed

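The authors deposited a gene table with FPKM values and estimated counts per library and a circular RNA table with back-splice counts, per the file headers. Fractional values made up 9.479% of the nonzero gene counts, which were rounded to whole numbers here. Reads were handled with fastp, per the submitters' processing notes; which aligner, counter, strand setting and genome build were used is not given in the sources used here. The 12 columns of rescaled back-splice values were not used. The deposited table gives a symbol for 14940 genes.

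Counts were tested in R 4.3.3 with edgeR 4.0.16 (TMM, filterByExpr with a minimum of 10 counts and a total of 15, robust quasi-likelihood F test, 4 group means, 8 residual degrees of freedom, Benjamini-Hochberg over 13532 genes, called at an adjusted p under 0.05). CPM are TMM-scaled; fold changes come from the fit. Circular RNAs with at least 2 counts in 3 libraries and 10 in all were tested likewise. Shares were tested by exact permutation. DESeq2 1.42.0, other scalings and filters, a replicate block and leaving out each library were alternatives. The fit was tested on simulated data. P-values measure the spread between the animals of a group, 3 each.

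The genes, lists and comparisons were chosen with earlier results of these data known. Named genes are those called in any contrast, the 2 with the smallest p per complex and genome in the 2 averaged comparisons, all mitochondrial genes, isoform families, SDH genes, ATP5IF1 and the 5 highest and 5 lowest by FPKM; UQCRC2, NDUFS1, COX7C and the 15 subunits without a deposited symbol were added after their values were seen.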

Additional observations from a re-analysis of the deposited data

How the results depend on the processing

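The number of subunit genes called moved with the tool and the scaling, and the genes called by edgeR under TMM kept their signs, in the comparison that called them, under every alternative run. With DESeq2 in place of edgeR, 2 genes were called for the cold in Hezuo, 5 in Bama and 13 over both breeds, and 5 between breeds at room temperature, 2 in the cold and 15 over both temperatures. Scaling by library totals, chosen after seeing the data, gave 5 for the cold in Bama (6.41%, against 2.12% of all genes), 17 over both breeds (21.8%, against 8.25%) and 3 between breeds in the cold (3.85%, against 16.1%). With DDX3Y detection as a covariate 0 were called for the cold over both breeds, 0 between breeds at room temperature and 0 over both temperatures, where at most 0.155% of all genes were called. That covariate rests on the second Bama cold liver. The room temperature breed comparison also gave 0 when only its 2 groups were fitted, against 1.05% of all genes. With the replicate block it gave 0, against 0.259% of all genes. Under the block the cold over both breeds gave 3 (COX7B, NDUFA8 and UQCRC1, 3.85% against 2.67% of all genes) and the breeds over both temperatures 7 (8.97% against 9.68%). The labels do not say that animals with the same replicate number are paired. Of 18 same-numbered pairs, 3 correlated above 0.1 (r from -0.198 to 0.148), and 4 of 12 libraries were closest to their own number. These values show no pairing, but with 3 animals a group they cannot exclude it. Leaving out each library in turn gave 0 to 1 calls for the cold in Bama (0.132 to 0.97% of all genes) and 0 to 5 over both breeds (0.955 to 4.42%). Between breeds it gave 0 to 1 at room temperature (0.0586 to 4.35% of all genes) and 2 to 11 over both temperatures (5.08 to 14%). The log2 difference of the mitochondrial share in the cold ran from 0.25 to 0.45 and its unadjusted exact permutation p was under 0.05 only without the third Hezuo cold liver. From summed FPKM the nuclear share differed between breeds by -0.18 (unadjusted exact permutation p = 0.045). The cause of these shifts was not tested, and every comparison rests on 3 animals a group. Depth limits the circular RNAs listed to subunit genes, none of which passed 42 reads in a library.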
